A study of Oryza sativa with 8 samples.

Results

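The regions described here are the ATAC-seq peaks of Nipponbare (Nip, a japonica rice) seedlings that lay on contigs, that is on any sequence of the peak lists other than chromosomes 1 to 12. Members were chosen by sequence name alone, and peaks of the 4 Nip lists that overlapped or touched were merged into regions. This gave 1091 peaks and 370 merged regions, out of 135054 peaks and 49976 regions in the 4 Nip lists and 246695 peaks in the 8 lists of the series. The other 49606 Nip regions were on the chromosomes.

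ATAC-seq uses the Tn5 transposase to insert sequencing adapters into DNA that is not tightly packed, so read pileups mark open chromatin such as active promoters and other regulatory DNA. Unplaced contigs are assembled stretches that could not be given a position on a chromosome. In plant assemblies they often hold repeats, ribosomal DNA copies or stretches that resemble organelle DNA, because such sequences are hard to assemble.

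The HS group comprised 2 libraries from 3-week-old Nip seedlings held at 45 °C for 36 h, at high humidity and at a light intensity of 60 to 80 μmol m-2 s-1. The Normal group comprised 2 libraries from Nip seedlings of the same age, without the heat. All seedlings were raised in culture solution at 800 μmol m-2 s-1, and nuclei came from their aerial parts, so the cell types within them cannot be told apart. For the Normal seedlings, light and humidity over the same 36 h were not stated, so HS stands for the whole treatment. The methods call the 2 libraries of a group biological replicates.

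The lists gave a start, an end and 1 value per peak, read as the −log10 p of the peak over background. Read depth was not recorded. In its place, the background rate recovered from the values (the fragments expected to overlap a base by chance) was 6.79 and 6.85 in the HS libraries, against 5.31 and 5.21 in the Normal libraries. This rate follows depth, and a −log10 p rises with depth, so depth and the heat treatment cannot be told apart in any comparison of HS with Normal. Strength was therefore read mainly as a percentile. This is the rank of a peak within its own list, from weakest to strongest, in percent, with ties given their mean rank.

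All sequences outside the chromosomes bore names of 1 kind, from Contig00021 to Contig00184, and none was named as an organelle genome. The lists do not say that these contigs are unplaced, and their sequence, annotation and full lengths were not analysed here, so no gene is assigned to any region below. Positions are given on the contigs as the lists name them, counted from 1.

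A peak was present on 74 contigs in at least 1 list. The number of contigs with a peak was 66 and 70 in the HS lists, against 69 and 68 in the Normal lists. Of the 74 contigs, 63 had a peak in all 4 lists, 2 in 3 lists, 6 in 2 lists and 3 in 1 list. The regions were unevenly spread among them, with a median of 3 per contig, 16 contigs with a single region, 26 with 5 or more and a maximum of 35. The regions were 150 to 3812 bp long (median 320.5 bp) and summed to 171366 bp.

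Contig peaks were a small part of each list by number and a large part of its strongest peaks. The lists held 274 and 279 contig peaks in HS, against 270 and 268 in Normal, or 0.750% and 0.754% of all peaks in HS against 0.853% and 0.899% in Normal. In every one of the 4 lists the 10 strongest peaks, and 47 of the 50 strongest, were on contigs. Of the 100 strongest peaks, 54 and 55 were on contigs in the HS lists, against 57 and 58 in the Normal lists. The strongest chromosome peak ranked only 29 and 30 in the HS lists, against 30 and 31 in the Normal lists. Its −log10 p was 655 and 668 in HS, against 710 and 662 in Normal, whereas the strongest contig peak reached 3756 and 3883 in HS, against 3920 and 3940 in Normal.

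**Figure D1:**
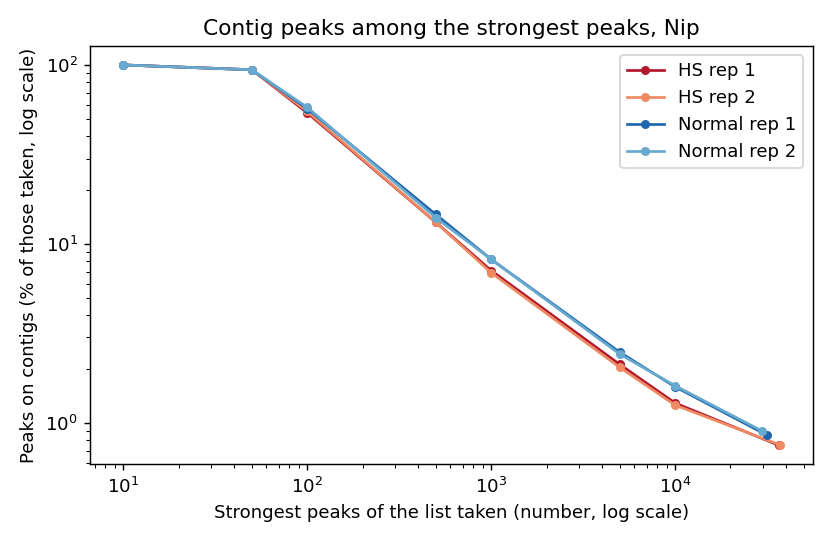
Share of contig peaks (vertical axis, % of the peaks taken, log scale) among a growing number of the strongest peaks of each list (horizontal axis, log scale), 1 line per Nip library. All 10 of the 10 strongest peaks were on contigs in each library, and the share ended at 0.750% and 0.754% for the whole HS lists, against 0.853% and 0.899% for the whole Normal lists.

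The excess of strong peaks faded quickly down the lists. Among the 500 strongest peaks, 66 in each HS list were on contigs (13.2%), against 73 and 70 in the Normal lists (14.6% and 14.0%). Among the 1000 strongest the numbers were 71 and 69 in HS (7.1% and 6.9%), against 82 in each Normal list (8.2%). Above percentile 99 lay 62 contig peaks in each HS list, against 65 and 66 in the Normal lists. These were 22.6% and 22.2% of the contig peaks in HS, against 24.1% and 24.6% in Normal. Weak peaks were less frequent on contigs than in a whole list, where about 25% lie below percentile 25 by construction. Below it fell 49 and 48 contig peaks in the HS lists (17.9% and 17.2%). In the Normal lists these were 30 and 32 (11.1% and 11.9%).

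The median contig peak was also stronger than the median chromosome peak of the same list. The median percentile of contig peaks was 68.3 and 64.9 in the HS lists, against 79.5 and 79.0 in the Normal lists. Subtracting the median of the chromosome peaks of the same list left 18.5 and 15.0 points in HS, against 29.8 and 29.2 points in Normal. The mean difference was 23.1 points and it was positive in 4 of 4 lists. With 4 lists an exact two-sided sign-flip permutation test gave p = 0.125, the smallest value it can give. The contigs were not uniform in this respect, as the next paragraphs show.

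Contig peaks were narrower than chromosome peaks at the median and yet more often wide. The median width on contigs was 332 and 331 bp in the HS lists, against 303 and 322 bp in the Normal lists, while that on chromosomes was 405 and 402 bp in HS, against 346 and 355 bp in Normal. The contig median was lower in 4 of 4 lists, by 55 bp on average (exact two-sided sign-flip permutation test, p = 0.125, its smallest value). Peaks of 1 kb or more made up 8.03% and 7.89% of contig peaks in HS and 7.41% and 7.46% in Normal. These were only 22 peaks in each HS list and 20 in each Normal list, several of them on Contig00081. On chromosomes they made up 5.03% and 4.92% in HS and 2.96% and 3.08% in Normal. Contig peaks of 2 kb or more numbered 6 and 7 in the HS lists and 7 and 5 in the Normal lists, and all lay on Contig00051, Contig00081 and Contig00083 except 1 peak of the second HS list on Contig00177.

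The strongest peaks came from few contigs. Contig00023, Contig00028, Contig00043, Contig00050, Contig00051, Contig00081, Contig00083, Contig00084, Contig00124 and Contig00126 each held a peak among the 100 strongest in every list. These 10 contigs, picked by their values and described without a test, carried 86 and 87 peaks in the HS lists, against 91 in each Normal list. They accounted for 54 of the 100 strongest peaks in each HS list, against 57 and 58 in the Normal lists. Their median percentile was 99.9 in each HS list, against 99.8 in each Normal list.

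The other 64 contigs were much closer to the chromosomes. They are those left once the 10 contigs were picked by their values, and the chromosomes were not trimmed likewise. A lower percentile on these 64 contigs is thus in part fixed by that choice and is given as a description. Their median percentile was 53.0 and 50.9 in the HS lists, against 60.2 and 60.9 in the Normal lists. The chromosome median was 49.9 in each HS list, against 49.8 in each Normal list. Above the chromosome median of the same list the 64 contigs stood by 6.42 points on average, with the same sign in 4 of 4 lists. By list this ranged from 0.993 to 11.1 points, and it was smaller in both HS lists than in both Normal lists. The median peak width on the 64 contigs was 315 and 296 bp in HS, against 263 and 262 bp in Normal, below that on the chromosomes in each list.

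Contig00081 held the most peaks, with 32 and 34 in the HS lists, against 34 in each Normal list. They covered 29299 and 29635 bp in HS, against 30115 and 30024 bp in Normal, so that both HS lists lay slightly below both Normal lists. Between its first and last peak base, positions 23162 and 132609, peaks covered 26.8% and 27.1% of the sequence in HS, against 27.5% and 27.4% in Normal. Of its 35 regions, 31 had a peak in all 4 lists. It contributed 18 of the 100 strongest peaks in each HS list, against 18 and 19 in the Normal lists. The median −log10 p of its shared regions was 259 and 252 in HS, against 263 and 274 in Normal.

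The widest region shared by all 4 lists was on the same contig, at positions 66774 to 70585 (3812 bp). Its −log10 p was only 43.2 and 53.2 in the HS lists, against 57.3 and 59.4 in the Normal lists, with no overlap between the groups. The strongest region of this contig, at positions 89232 to 89804, is named here after its values were seen and reached 1846 and 1975 in HS, against 1925 and 1765 in Normal, with overlapping groups. The widest region of this contig was therefore not among its strong ones.

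Contig00028 held fewer peaks than Contig00081 and the strongest ones of all. It had 19 and 20 peaks in the HS lists, against 21 in each Normal list, and 19 of its 20 regions were in all 4 lists. Its peaks covered 11053 and 11105 bp in HS, against 10495 and 10836 bp in Normal, between positions 21753 and 110648. Of the 100 strongest peaks it supplied 16 in each HS list, against 17 in each Normal list. The median −log10 p of its shared regions was 1737 and 1754 in HS, against 1698 and 1752 in Normal, and the weakest of them had only 14.2 and 12.9 in HS, against 22.6 and 15.9 in Normal. Strong and weak peaks therefore stood side by side on this contig.

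The 5 strongest regions shared by all 4 lists were all on Contig00028. The region at positions 65286 to 66279 ranked first in every list, with a −log10 p of 3756 and 3883 in the HS lists, against 3920 and 3940 in the Normal lists. Both HS values lay below both Normal values. As a fold over the background rate, the same region stood at 275 and 281 in HS, against 350 and 356 in Normal. The region at positions 84439 to 84711 was only 273 bp long and had a −log10 p of 3305 and 3467 in HS, against 3681 and 3506 in Normal, again without overlap.

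The remaining regions of the 5 did not separate the groups as clearly. The region at positions 49306 to 50196 had a −log10 p of 3506 and 3517 in the HS lists, against 3410 and 3567 in the Normal lists, so the groups overlapped. The region at positions 50944 to 51951 had 2620 and 2687 in HS, against 2633 and 2653 in Normal, with overlap as well. The region at positions 57343 to 58427 had 3101 and 3161 in HS, against 3196 and 3160 in Normal, with overlap between the groups. In this last region a single peak was called in each HS list and 2 peaks in each Normal list. Of the 8 contig regions that ranked among the 10 strongest of all 4 lists, 7 were on Contig00028.

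**Figure D2:**
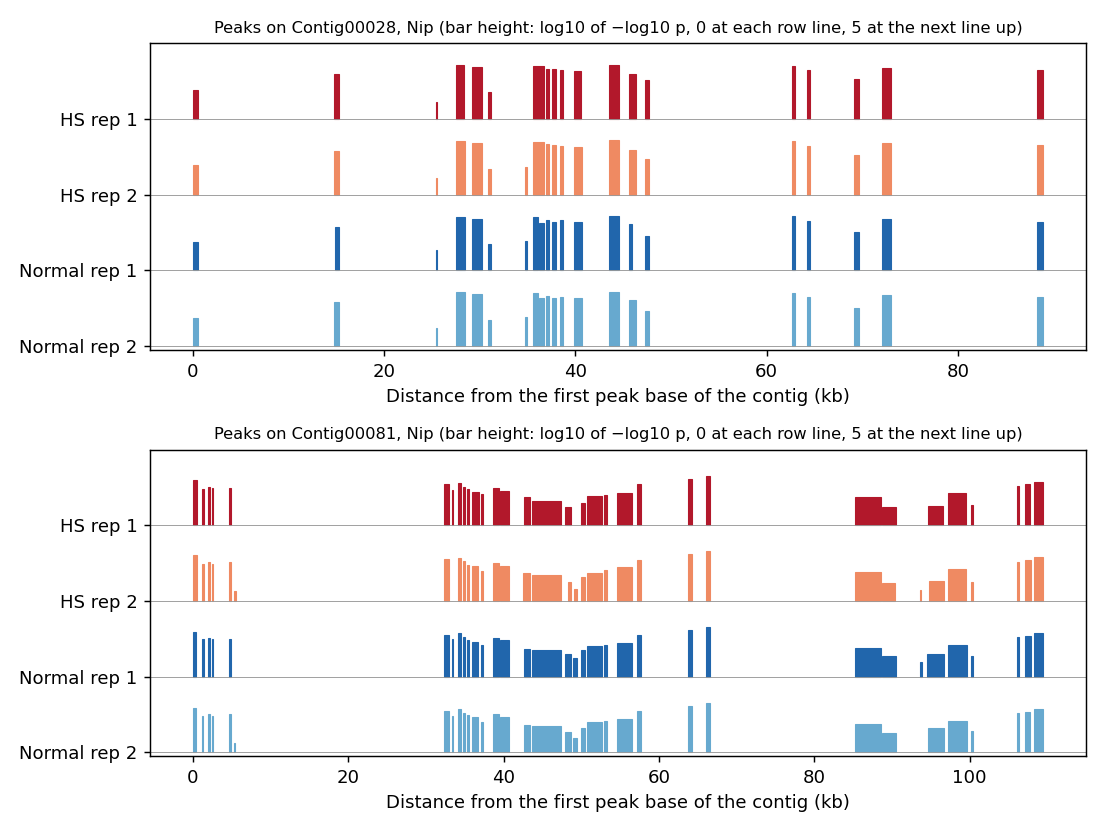
Peaks of the 4 Nip libraries along Contig00028 (top) and Contig00081 (bottom), with the distance from the first peak base of the contig in kb on the horizontal axis and 1 row per library, HS above Normal. Bar width is the extent of the peak and bar height is log10 of its −log10 p, and the 19 regions of Contig00028 and the 31 of Contig00081 that all lists shared recur at the same places in each row.

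Contig00126 was the third contig by peak number, with 11 and 10 peaks in the HS lists, against 12 and 11 in the Normal lists. Its peaks lay close together, between positions 57874 and 81497, and covered 5237 and 5424 bp in HS, against 5288 and 5186 bp in Normal. The groups overlapped on both measures. The median −log10 p of the 10 shared regions was 359 and 355 in HS, against 367 and 346 in Normal.

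Contig00036 and Contig00054 differed from these in strength and in sharing. Contig00036 had 12 and 11 peaks in the HS lists, against 8 and 6 in the Normal lists, covering 4202 and 3451 bp in HS against 2104 and 1800 bp in Normal. On both measures its HS lists stood above its Normal lists. Its peaks were weak, with a median percentile of 9.04 and 10.6 in HS, against 26.3 and 33.5 in Normal, and only 3 of its 24 regions had a peak in all 4 lists. Contig00054 had 11 and 8 peaks in HS, against 8 and 9 in Normal, and covered 4298 and 3430 bp in HS, against 2701 and 2994 bp in Normal. There the groups overlapped in number and not in length, and 6 of its 14 regions were in all 4 lists.

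**Figure D3:**
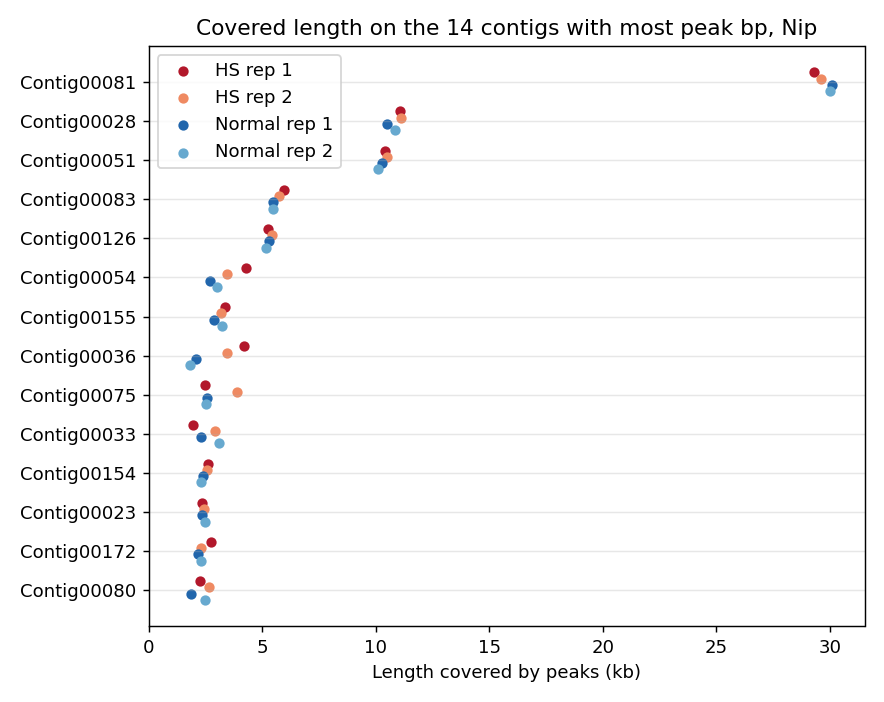
Length covered by peaks (horizontal axis, kb) on the 14 contigs with the most covered length, with 1 point per Nip library and HS drawn above Normal on each contig. Contig00081 stood apart at 29299 and 29635 bp in HS against 30115 and 30024 bp in Normal, and Contig00036 had more covered length in both HS lists than in either Normal list.

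At the median, neighbouring regions were closer together on contigs than on chromosomes, though not on every contig. The median gap was 2658 bp on contigs, against 4202.5 bp on chromosomes, and 30.7% of gaps on contigs were under 1 kb, against 18.5% on chromosomes. The gap was smallest on Contig00081, with a median of 585 bp, among the 3 contigs with the most peaks, and was 1277 bp on Contig00028 and 1365 bp on Contig00126. On Contig00051 and Contig00054 it was 1262 and 2226 bp. On the weak Contig00036 it was 6196 bp, on Contig00033 7386 bp and on Contig00080 10790.5 bp, all above the chromosome median. These gaps describe the called regions only, since the full length of the contigs was not known. A gap cannot be longer than its contig, and this limit was not allowed for.

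The next question was whether contig peaks differed between HS and Normal. The number of contig peaks averaged 276.5 ± 3.54 in HS and 269 ± 1.41 in Normal (SD, n = 2 each), a difference of 2.79%. On chromosomes the number averaged 36511 ± 328 in HS and 30470.5 ± 1313 in Normal, a difference of 19.8%. The covered length on contigs averaged 136302 ± 1357 bp in HS and 125660 ± 344 bp in Normal, or 8.47% more in HS, whereas on chromosomes HS had 36.5% more. Each of these differences was larger than the SD between replicates. An exact permutation test (two-sided) returned p = 0.333 for all of them. That is the lowest p possible with 2 libraries against 2, so none could pass a threshold of 0.05.

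Relative to the whole list, contigs thus took a smaller part under HS. The contig share of all peaks averaged 0.752 ± 0.00284% in HS and 0.876 ± 0.0329% in Normal, without overlap (exact permutation test, p = 0.333). Their share of the covered length was 0.783% and 0.788% in the HS lists, against 0.965% and 1.01% in the Normal lists. The median percentile of contig peaks averaged 66.6 ± 2.47 in HS and 79.3 ± 0.355 in Normal, a difference of -12.7 points (exact permutation test, p = 0.333). The median width averaged 331.5 ± 0.707 bp in HS and 312.5 ± 13.4 bp in Normal, which exceeded the SD although the smallest HS value, 331 bp, was only 9 bp above the larger Normal value. This difference of 19 bp was 9.5 bp without the first Normal library and 28.5 bp without the second, and 74 bp among the 20000 strongest peaks. The background rate was 29.7% higher in HS, and its part in these differences was not tested. The narrowest contig peak also differed, at 163 bp in each HS list against 150 and 154 bp in the Normal lists. Its part in the width difference was not tested either.

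The direction of some of these differences depended on how many peaks were taken. When only the 20000 strongest peaks of each list were kept, contig peaks averaged 189 in HS and 224.5 in Normal, and contig length averaged 111006 bp in HS and 114444 bp in Normal. At a −log10 p of at least 5 in every list, contig peaks averaged 248.5 in HS and 252.5 in Normal. Among the 20000 strongest the median percentile of contig peaks was 84.1 in HS and 82.0 in Normal. The share of contig peaks stayed lower in HS under both thresholds, by -0.17 and -0.21 percentage points.

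The larger covered length in HS came mostly from contigs outside the 10 strongest ones. On those 10 contigs peaks covered 66976 and 67587 bp in the HS lists, against 66684 and 66845 bp in the Normal lists, a mean difference of 0.774%. On the other 64 contigs they covered 68366 and 69674 bp in HS, against 58733 and 59058 bp in Normal, a mean difference of 17.2%. The peak numbers on these 64 contigs were 188 and 192 in HS, against 179 and 177 in Normal.

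Contig by contig, the number of peaks moved in either direction about equally often. HS exceeded Normal in 21 contigs, Normal exceeded HS in 21, and the 2 conditions tied in 32, by the sum of their lists. Both HS lists were above both Normal lists in 7 of the 74 contigs and below them in 5, whereas over all 86 sequences with a Nip peak the shares were 22.1% above and 5.81% below, all 12 chromosomes being above. By covered length, 23 contigs were above and 6 below, against 40.7% and 6.98% of all sequences.

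Sharing between the lists was read from the merged regions. Of the 370 contig regions, 199 (53.8%) had a peak in all 4 lists, against 20632 (41.6%) on the chromosomes and 41.7% of all Nip regions. A further 32 (8.65%) had a peak in 3 lists, against 11.7% on the chromosomes, and 27 (7.30%) in 1 HS and 1 Normal list, against 4.61%. A peak in a single list was found at 95 regions (25.7%), against 30.0% on the chromosomes and 29.9% of all Nip regions. These 95 comprised 30 and 26 in the HS lists and 20 and 19 in the Normal lists.

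HS-only regions, with a peak in both HS lists and neither Normal list, were less frequent on contigs than elsewhere. There were 9 of them (2.43%), against 4997 (10.1%) on the chromosomes and 10.0% of all Nip regions. Normal-only regions, with the opposite pattern, numbered 8 (2.16%), against 1034 (2.08%) on the chromosomes and 2.09% of all Nip regions, a share close to that background. The count of HS-only regions was 37 without the first and 40 without the second HS library, and 21 without the first and 15 without the second Normal library, since each class then requires fewer lists. The count of Normal-only regions was 12 and 18 without the first and second HS library, and 27 and 28 without the first and second Normal library.

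**Figure D4:**
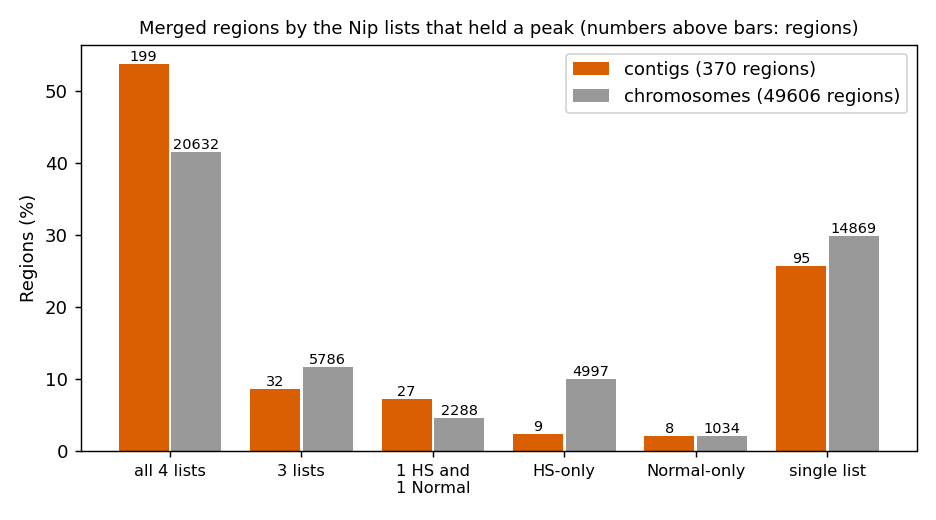
Percent of merged regions (vertical axis) by the Nip lists in which they had a peak, for contigs (orange, 370 regions) and chromosomes (grey, 49606 regions), with the number of regions above each bar. The bar for all 4 lists was higher on contigs, 53.8% against 41.6%, and that for HS-only regions lower, 2.43% against 10.1%.

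The sharing of regions varied among the contigs. The 10 contigs with the strongest peaks were picked for a strong peak in every list, so their sharing is in part fixed by that choice and is given as a description. The same holds for the other 64 contigs, which that choice left over, while the chromosomes were not trimmed likewise. On these 10 contigs, 82 of 92 regions (89.1%) had a peak in all 4 lists, 1 was HS-only, none was Normal-only and 4 were in a single list. On the other 64 contigs 117 of 278 regions (42.1%) were in all 4 lists, close to the 41.6% on the chromosomes, 8 were HS-only, 8 were Normal-only and 91 were in a single list. The median percentile was 87.8 for contig regions in all 4 lists, 12.2 for HS-only, 37.5 for Normal-only and 15.3 for single-list regions. On the chromosomes the corresponding medians were 65.9, 30.2, 26.8 and 11.0. A total of 12 contigs had no region in all 4 lists.

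HS-only regions were weak. The strongest HS-only region, on Contig00042 at positions 12022 to 12207, had a −log10 p of 9.02 and 9.57 in the HS lists. It was followed by Contig00069 at positions 21081 to 21852 with 8.40 and 8.33. Contig00109 at positions 1385 to 1622 and Contig00083 at positions 152586 to 152779 tied for the next place, each with 5.03 and 4.97. All of these lay at or below percentile 34.0 of their list.

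Normal-only regions reached somewhat higher values. The strongest, on Contig00162 at positions 2272 to 2433, had a −log10 p of 16.9 and 14.7 in the Normal lists, at percentiles 65.5 and 60.9. The next was on Contig00042 at positions 36241 to 36403 with 16.1 and 9.43, so this contig carried a region of each kind. Contig00086 at positions 42310 to 42492 had 7.94 and 7.43. All 3 were under 200 bp long. The regions on Contig00162 and Contig00042 were 162 and 163 bp long. In comparison, the narrowest contig peak was 163 bp in each HS list, against 150 and 154 bp in the Normal lists. Whether peaks this narrow could have been called in the HS lists was not tested.

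The lack of a peak in a list did not always go with a low value in the others. At 3 narrow regions, named after their values were seen, a strong peak in some lists had no counterpart elsewhere. The region of Contig00126 at positions 66738 to 66887 (150 bp) had a −log10 p of 101 in the first Normal list and no peak in the other lists. The region of Contig00081 at positions 56538 to 56711 (174 bp) had 214 in the first HS list and no peak in the second, against 299 and 257 in the Normal lists. The region of Contig00028 at positions 56521 to 56689 (169 bp) had 69.0 in the second HS list and no peak in the first, against 88.3 and 88.5 in the Normal lists. These regions were near the smallest widths called. The narrowest contig peak was 163 bp in each HS list, against 150 and 154 bp in the Normal lists. The HS peak was 165 bp wide at the Contig00081 region and 163 bp at the Contig00028 region. Whether a lower limit on width left the other lists without a peak was not tested.

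The base pairs covered by contig peaks overlapped about as well between conditions as within them. The Jaccard index (base pairs covered by both lists over those covered by either) was 0.751 between the HS lists, 0.773 between the Normal lists, and 0.728 to 0.752 between an HS and a Normal list. The mean was 0.762 within and 0.740 between conditions. On the chromosomes the index was 0.635 between the HS lists, 0.556 between the Normal lists, and 0.482 to 0.490 between conditions. Unequal covered lengths alone cap the index between conditions at 0.914 to 0.930 on contigs, against 0.715 to 0.751 on chromosomes. Between replicates the caps were 0.986 (HS) and 0.996 (Normal) on contigs, against 0.992 (HS) and 0.960 (Normal) on chromosomes. The part of length in the gap between contigs and chromosomes was not tested. Counted by peaks, 79.6% to 82.1% of the contig peaks of an HS list overlapped a peak of a Normal list, and 82.6% to 86.7% of those of a Normal list overlapped a peak of an HS list. Between replicates the share was 81.7% to 84.7%. No test was made of these values, since the 4 pairs share libraries.

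At the 199 contig regions with a peak in all 4 lists the groups overlapped in median −log10 p and not in median fold over background. The median −log10 p was 47.8 and 47.6 in the HS lists, against 48.3 and 42.2 in the Normal lists. At the 20632 chromosome regions it was 25.8 and 26.3 in HS, against 17.1 and 15.9 in Normal, without overlap. The log2 ratio of the contig median to the chromosome median was 0.89 and 0.86 in HS, against 1.50 and 1.41 in Normal, a difference of -0.58 (exact permutation test, p = 0.333, the smallest it can give). With the value expressed as a fold over the background rate of the library, the contig median was 10.6 and 10.5 in HS, against 12.4 and 11.5 in Normal, so that both HS values lay below both Normal values. On this scale the same log2 difference was -0.37 (exact permutation test, p = 0.333). Fold here assumes the library rate at every peak, and most chromosome peaks of each list had values off the Poisson tail of that rate, as given below. Contrasts of contigs with chromosomes in fold carry this limit.

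Region by region, the contrast with the chromosomes was of the same kind. The log2 ratio of −log10 p in HS over Normal had a median of 0.05 on contigs, with HS higher at 115 of 199 regions, against a median of 0.53 on chromosomes, with HS higher at 80.5%. In fold over background the median was -0.21 on contigs, with HS higher at 41 of 199 regions, against 0.11 on chromosomes, with HS higher at 61.8%. The direction at contig regions therefore depended on which of the 2 scales was used.

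The scales also differed in how often the groups separated. In −log10 p both HS values lay above both Normal values at 67 contig regions (33.7%), against 61.4% of all 20831 regions in 4 lists, and below them at 34 (17.1%), against 9.01%. In fold over background both HS values lay above at 15 contig regions (7.54%), against 40.5% of all such regions, and below at 114 (57.3%), against 21.6%. On either scale the share above was smaller on contigs than over all such regions.

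On both scales the contig median of the HS to Normal ratio lay below the chromosome median in every range of percentile. The top range was not matched in strength, since contig peaks reached a −log10 p of 3940 and chromosome peaks 710. Among regions at a mean percentile of 99 or more, the median log2 ratio of −log10 p was 0.01 at 61 contig regions, against 0.06 at 236 chromosome regions. Between percentiles 80 and 99 it was 0.13 at 55 contig regions, against 0.41 on chromosomes. Between 50 and 80 it was 0.05 at 57 contig regions, against 0.65 on chromosomes, and below 50 it was 0.02 at 26 contig regions, against 0.51 on chromosomes. In fold over background, the median log2 ratio from the strongest to the weakest range was -0.28, -0.15, -0.16 and -0.15 on contigs, against -0.22, 0.04, 0.19 and 0.11 on chromosomes. Contig medians were thus near 0 in −log10 p and below 0 in fold. No test was made, because regions of a library are not replicates.

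**Figure D5:**
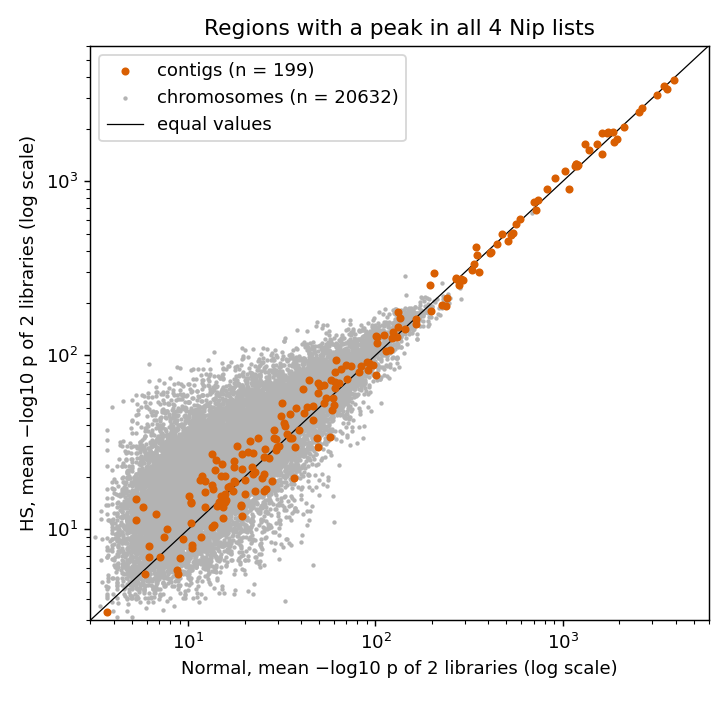
Mean −log10 p of the 2 HS libraries (vertical axis) against that of the 2 Normal libraries (horizontal axis), both on a log scale, at each region with a peak in all 4 Nip lists, for 199 contig regions (orange) and 20632 chromosome regions (grey), with a line of equal values. Contig regions lay about the line, with HS higher at 115 of 199, and reached values above those of any chromosome region.

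The borders of contig peaks were also placed more alike in the 4 lists. Edges were compared at the 190 contig and 19170 chromosome regions with a single peak in each of the 4 lists. The position of a region's edge varied across the lists by a median of 20.5 bp on contigs, against 115 bp on chromosomes. Regions in all 4 lists were shorter on contigs, with a median of 486 bp against 641 bp, and the part of length was not tested. At a mean percentile of 99 or more the edge varied by 9.0 bp on contigs, against 53.5 bp on chromosomes. In the ranges below, from strong to weak, it was 16.5, 55 and 79 bp on contigs, against 92, 118 and 143 bp on chromosomes.

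The values of contig peaks also lay more often on the tail of a Poisson distribution at the background rate of the whole library. This held for 60.6% and 53.8% of contig peaks in the HS lists, against 58.1% and 54.1% in the Normal lists. On chromosomes it held for 32.9% and 33.2% of peaks in HS, against 30.7% and 28.6% in Normal. The background behind the values off this tail was not recovered, so contig and chromosome peaks may not have been scored alike in all cases. Fold over background used the library rate at every peak, so at values off the tail it may differ from the true fold.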

How the data were processed

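ATAC-seq peak lists of 4 Nip libraries were analysed, grouped by sample title as 2 HS and 2 Normal libraries. The 93-11 lists entered only totals, since no coordinates are shared. According to the methods, the authors used Cutadapt for trimming, Bowtie2 for mapping, SAMtools to drop poorly mapped, improperly paired and organelle reads, Picard for duplicates and MACS2 for peak calling. The submitters' processing notes name BWA 0.7.10-r789, SAMtools 0.1.19, deepTools 2.0 and MACS2 2.1.1 instead. A mapping quality filter removes reads that match several places equally well, so contig stretches with close copies in the assembly may be missed. The genome build and any Tn5 shift are not given in the sources used here.

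The values deposited by the authors have no header and were read as −log10 p, since many lay on a Poisson tail at whole pileups. Depth is unknown. The background rate was the Poisson rate that best matched the 12 most frequent values, and fold was the implied pileup over it. Lists were made per library.

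Peaks overlapping by at least 1 bp or touching were merged. Groups were compared by exact two-sided permutation tests over 6 assignments, and contigs with chromosomes within a list by sign flips over 16 assignments. Scripts were tested on simulated data. Named were the 5 contigs with most peaks, the 5 strongest shared regions, the 3 strongest HS-only and 3 strongest Normal-only regions, and the widest shared region, with ties and later additions stated. Alternatives were a minimum value, the 20000 strongest peaks, 50% cover, merging across 200 bp, a replicate block and leaving out libraries or contigs. Members and lists were chosen with earlier results of these data known. Python 3.11.15, numpy 2.4.6, scipy 1.17.1, pandas 2.3.3 and matplotlib 3.10.9 were used.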

Additional observations from a re-analysis of the deposited data

How the results depend on the processing

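Of the 91 values recomputed under an alternative, 76 kept their direction and side of the threshold (for region counts, stayed within 1.5 times), 4 reversed and 11 region counts moved further. With the 20000 strongest peaks of each list, the HS minus Normal difference became -35.5 contig peaks, -3437.5 bp of covered length and 2.08 points of median percentile, and with values of at least 5 it became -4 peaks. HS-only regions then numbered 0 and 3 under these thresholds, and Normal-only regions 13 among the 20000 strongest. Leaving out 1 library gave 15 to 40 HS-only and 12 to 28 Normal-only regions. Without the 10 contigs with a peak among the 100 strongest in every list, an alternative chosen after the data were seen, 117 regions were in all 4 lists. Sizes moved by over 1.5 times in some that kept their direction. The median width difference between HS and Normal, 19 bp, was 9.5 to 28.5 bp with 1 library left out, 33.5 bp without Contig00081, 36 bp at values of at least 5, 74 bp among the 20000 strongest and 43 bp without the 10 contigs. Without those 10 contigs the mean percentile difference between contigs and chromosomes was 6.44 points, the width difference -93 bp, the difference in share -0.0635 percentage points and that in peak number 12. At values of at least 5 the difference in share was -0.211 percentage points and that in covered length 7021 bp, and among the 20000 strongest the width difference between contigs and chromosomes was -90.2 bp. With a replicate block the differences were the same (7.5 contig peaks and 10642 bp, for example). Each exact p was then 0.5, the smallest that 2 pairs allow, so no call was possible with or without the block. The deviations of same-numbered libraries correlated at 0.00813 over 20831 regions and -0.11 over the 199 contig regions, so the numbers were not taken to pair the samples. With 2 libraries per group, a permutation p of 0.333 says only that these libraries separated by condition, whatever their spread. Read depth stayed unknown.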

Other observations

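The 93-11 lists also held peaks on sequences other than chromosomes 1 to 12, under names of other kinds. These numbered 458 and 420 in the HS lists (1.80% and 1.82% of peaks), against 473 and 450 in the Normal lists (1.48% and 1.45%). Of the 100 strongest peaks of a list, they made up 85 and 86 in HS, against 77 and 76 in Normal. The sequences of the cultivars were not matched to each other, so these values stand beside those of Nip without a test.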
